A study of Mus musculus with 66 samples.

Results

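Collagens are the main proteins of the extracellular matrix, and their genes are named Col, a type number, the letter a and a chain number. The 44 genes described here are the rows of the mRNA-Seq table whose name has exactly this form, out of 22489 genes in the table. They were examined in 20 libraries of C2C12 cells, a mouse myoblast line, in growth and after differentiation. Of the 44 collagen genes, 16 had a mean of at least 1 FPKM (fragments scaled to transcript length and library size), as had 10954 genes of the table, and these 16 were tested. The study forced the expression of variants of histone H3 in these cells to see how they affect gene expression before and after differentiation. Each of 10 lines gave 1 growth and 1 differentiated library, so the lines are the units of comparison and no library has a replicate of its own. The labels give the same culture for all lines: growing cells were kept in 20% fetal bovine serum and harvested before confluence, and differentiated cells were kept for 48 h in 2% horse serum. WT is C2C12 without a transgene. The other 9 lines are Tet-On C2C12 cells in which an H3 protein with GFP at its N terminus is induced by doxycycline, and the methods describe them as stable clones that were drug-selected and sorted for GFP. H3.1, H3.2 and H3t have the H3.1/H3.2-type sequence, and the remaining 6 lines (H3mm7, H3mm11, H3mm12, H3mm13, H3mm16 and H3.3 itself) have the H3.3-type sequence. The columns headed H3mmT were taken as the H3t line. Endogenous H3 remained in every line.

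A collagen molecule is a triple helix of 3 chains, which may come from the same gene or from different genes of a type. Fibrillar collagens (types I, II, III, V, XI, XXIV and XXVII) form the fibres of connective tissue, type IV forms the sheet of basement membranes, and type VI forms beaded microfilaments next to them. In muscle, type I and III collagens fill the spaces between fibres, and type IV and VI collagens surround each fibre, where they are made largely by fibroblasts but also by the muscle cells themselves. Mutations in type VI chains cause muscular dystrophy.

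The libraries were checked against cell type markers. Summed FPKM of Myog, Ckm, Myh3, Acta1, Tnnt3 and Tmem8c, which mark differentiated muscle, lay between 4.02 and 157 in growth and between 2500 and 12480 after differentiation. Myoblast markers (Myod1, Myf5, Des, Pax7 and Cdh15) summed to between 266 and 725 FPKM in growth and between 564 and 1614 FPKM after differentiation. This sum was mostly Des, with medians of 272 FPKM in growth and 712 FPKM after differentiation. Des and Cdh15 were higher after differentiation in 10 of 10 lines, Myod1 in 7, Myf5 in 5 and Pax7 in 4. Of 6 fibroblast markers, Thy1, Lum, Tcf21 and Fap had means under 0.1 FPKM and Pdgfra 0.501 FPKM, and Tcf21 was listed at 0 in every library. The sixth, Dcn, had a median of 1.65 FPKM in growth and 58.0 FPKM after differentiation, and its part in the changes below was not tested. Chondrocyte and osteoblast markers, mostly Sox9, summed to at most 20.5 FPKM, and adipocyte, endothelial, macrophage, Schwann cell and epithelial markers to at most 7.68 FPKM in any library. The WT libraries stood apart from the GFP-H3 libraries: their FPKM summed to 409300 and 465200 over the table, against 641600 (growth) and 707000 (differentiated) for the median library. Counts of collagen genes are therefore also given without WT. The cells are read in bulk, so fewer cells that express a gene and less RNA per cell cannot be told apart.

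Of the 16 genes tested, 11 were at 1 FPKM or more in all 20 libraries, and Col6a2 was in the fewest, 10 of 20. The number of collagen genes at 1 FPKM or more was between 14 and 17 in growth libraries and between 14 and 16 in differentiated libraries. The fibrillar class had 6 of 11 genes tested (Col1a1, Col1a2, Col3a1, Col5a1, Col5a2 and Col5a3), the basement membrane class 3 of 6 (Col4a1, Col4a2 and Col4a5) and the microfibrillar class 3 of 6 (Col6a1, Col6a2 and Col6a3). The others tested were Col8a1 of 3 short-chain genes, Col12a1 and Col16a1 of 9 FACIT genes (collagens that attach to the surface of fibrils) and Col18a1 of 2 multiplexin genes. None of the 4 transmembrane genes reached the limit.

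**Figure D1:**
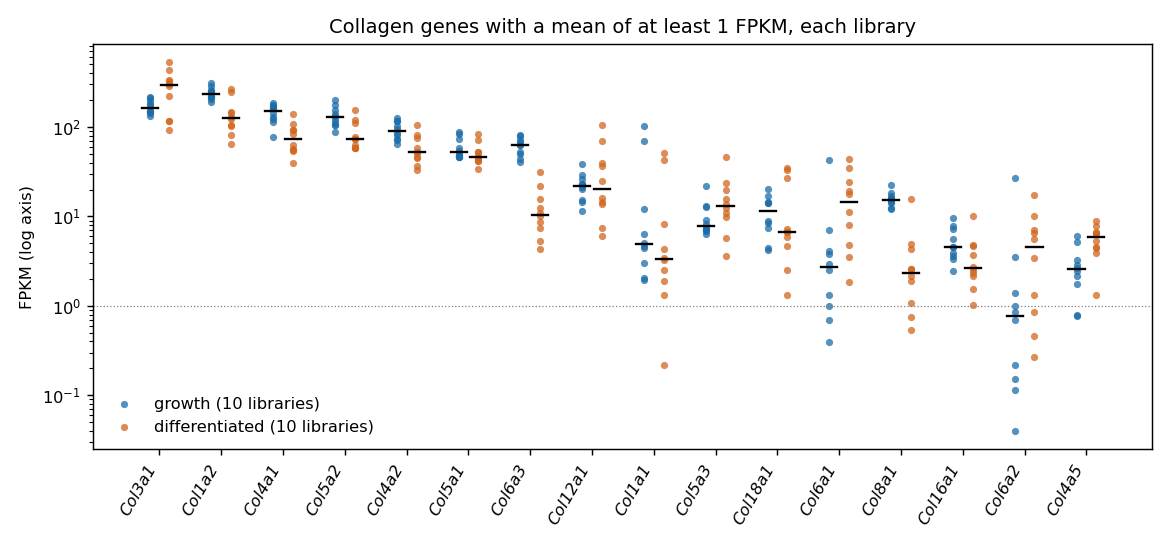
FPKM on a log axis of the 16 collagen genes with a mean of at least 1 FPKM, in order of their mean. Each point is 1 library (10 growth, blue, and 10 differentiated, orange), black bars are medians, and the dotted line is 1 FPKM. Col3a1 and Col1a2 were highest, and the points of Col1a1, Col6a1 and Col6a2 were spread far more widely than those of Col1a2 or Col5a1.

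Of the 28 genes below the limit, 27 stayed under 1 FPKM in every library. The exception was Col7a1, the anchoring fibril collagen, which had a mean of 0.919 FPKM. It had a median of 1.51 FPKM in growth (0.675 to 2.32) and 0.245 FPKM after differentiation (0.131 to 0.575), and it was lower after differentiation in 10 of 10 lines. Col11a2, a fibrillar chain of cartilage, was next with 0.104 to 0.287 FPKM in growth and 0.227 to 0.945 FPKM after differentiation. The least expressed gene inside the limit, Col4a5, had a mean of 4.18 FPKM, so no gene lay close above it. The remaining fibrillar genes were Col2a1, Col11a1, Col24a1 and Col27a1, with a highest value of 0.600 FPKM for Col11a1. The remaining basement membrane genes, Col4a3, Col4a4 and Col4a6, stayed at or under 0.103 FPKM, and the microfibrillar genes Col6a4, Col6a5 and Col6a6 at or under 0.0242 FPKM. Col10a1, the collagen of hypertrophic cartilage, reached 0.684 FPKM, and Col8a2, the partner chain of Col8a1, 0.133 FPKM. Among FACIT genes, Col14a1 reached 0.669 FPKM and Col9a3 0.276 FPKM, Col9a2, Col19a1, Col20a1 and Col22a1 had means under 0.1 FPKM, and Col9a1 was listed at 0 in all 20 libraries. Col13a1, Col17a1, Col23a1 and Col25a1 (transmembrane), Col15a1 (multiplexin) and Col26a1 and Col28a1 (other) had means of at most 0.092 FPKM. FPKM values were deposited without read numbers, so the depth is unknown and no limit was set for values at 0.

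Summed FPKM of the 44 genes lay between 852 (H3mm13) and 1244 (H3.1) in growth, with a median of 931. After differentiation it lay between 441 (H3mm11) and 1546 (H3.1), with a median of 743. The sum was lower after differentiation in 8 of 10 lines. The ratio of the differentiated to the growth sum was lowest in H3.3, H3mm11 and H3mm7, at 0.45, 0.458 and 0.468, and above 1 in H3.1 and H3t, at 1.24 and 1.303. In the other lines it was between 0.72 (H3mm12) and 0.999 (H3mm16). H3.3, H3mm7 and H3mm11 are the lines that the study set apart by a principal component of these same libraries, so their sums are described without a test. In the study, negative scores on that component went with higher expression of extracellular matrix genes, and these lines scored positive after differentiation. Their collagen sums are therefore not independent of that grouping. Differentiated muscle markers summed to 2627 FPKM in H3mm11, 3489 in H3mm7 and 3565 in H3.3, which had the lowest collagen sums, and to 2500 in H3t and 2662 in H3.1, which had the highest. They summed to 5887 FPKM in H3.2, 8108 in WT, 9067 in H3mm13, 9632 in H3mm16 and 12480 in H3mm12, whose collagen sums were between. The part of these marker levels in the collagen sums was not tested.

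**Figure D2:**
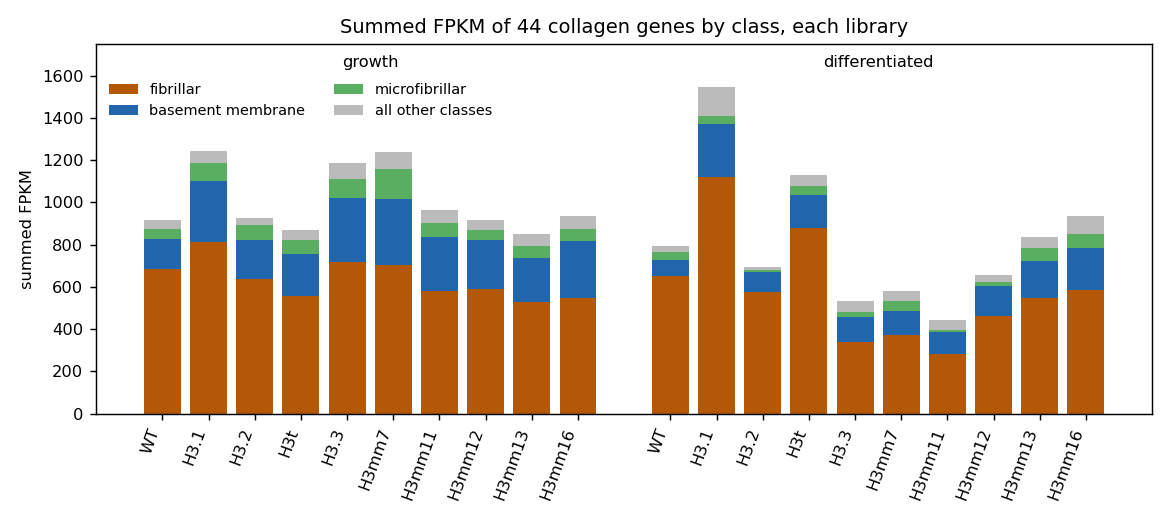
Summed FPKM of the 44 collagen genes in each library, stacked by class, with growth libraries at the left and differentiated libraries at the right. The growth libraries sum to 852 to 1244 FPKM, and the differentiated libraries to 441 to 1546 FPKM, with H3.3, H3mm7 and H3mm11 lowest and H3.1 highest.

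The make-up of the sum differed between the states. Col1a2 was the highest collagen gene in 10 of 10 growth libraries, whereas Col3a1 was highest in 9 of 10 differentiated libraries and Col5a2 in that of H3mm7. Fibrillar genes made up 56.7% (H3mm7) to 74.9% (WT) of the sum in growth and 62.9% (H3mm16) to 83.1% (H3.2) after differentiation. Basement membrane genes made up 15.52% to 28.7% in growth and 9.73% to 23.9% after differentiation, with WT lowest in both states. Microfibrillar genes made up 4.95% to 11.5% in growth and 1.595% to 8.48% after differentiation, with H3mm7 highest in both.

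Differentiated and growth libraries were compared with limma on log2(FPKM + 1) over all 10954 genes, with Benjamini-Hochberg adjustment over all of them. A gene was called at an adjusted p below 0.05 and a log2 difference of at least 1. Of the 16 collagen genes, 1 was called higher (Col6a1), where 8.87% of all genes were called higher, and 2 were called lower (Col6a3 and Col8a1), where 8.41% of all genes were called lower. By adjusted p alone, 2 were higher and 6 lower, against 30.5% and 28.1% of all genes. The median log2 difference was -0.40 over the 16 genes and 0.04 over all genes tested. The counts were the same without the WT libraries (1 higher, 2 lower). With the line as a replicate block the called genes were again 1 and 2, and 11 of 16 passed the adjusted p, against 8 without the block. Over all 10954 genes, 979 were called higher and 931 lower with the block. The block also raised the number of all genes with an unadjusted limma p under 0.05, from 6809 to 7968. For the 16 collagen genes this number was 9 without the block and 11 with it. Differences on this scale understate changes of genes near or below 1 FPKM. Col6a3 was the only collagen gene tested whose differentiated and growth values did not overlap, where 8.74% of all genes lay lower without overlap and 8.85% higher.

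**Figure D3:**
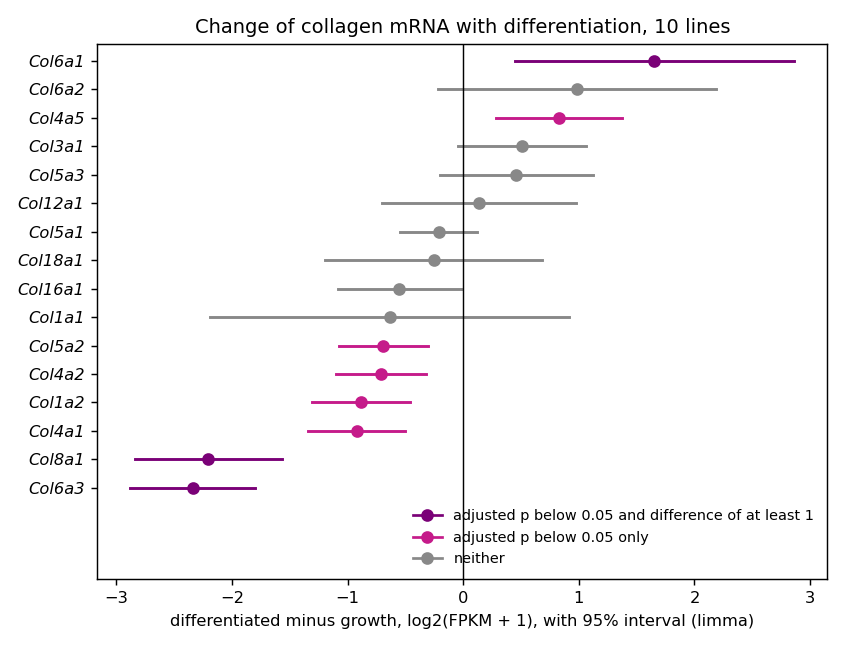
Differentiated minus growth values of the 16 collagen genes on the log2(FPKM + 1) scale, from limma over 10 growth and 10 differentiated libraries. Points are differences, lines are 95% intervals, and colour gives whether a gene passed the adjusted p and a difference of 1. Col6a3 and Col8a1 lie below -2, and Col6a1 lies highest at 1.65 with a wide interval.

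Type I collagen, the main collagen of bone, tendon and skin, is made of α1 chains from Col1a1 and α2 chains from Col1a2, with more α1 than α2 in its usual form. In these cells Col1a2 was high in every line and Col1a1 was low in most. Col1a2 in growth was between 188 FPKM (H3t) and 309.5 FPKM (WT), with 207 in H3mm11, 216 in H3mm16, 219 in H3mm13, 225 in H3mm12, 249 in H3.1, 250.4 in H3mm7, 261 in H3.2 and 285 in H3.3. These growth values span 1.64-fold. After differentiation Col1a2 was 64.0 FPKM in H3mm11, 82.1 in H3.3, 103 in H3mm13, 105 in H3mm7, 123 in H3.2, 131 in H3mm12, 145 in H3mm16, 145 in WT, 246 in H3t and 264 in H3.1. It was lower in 8 of 10 lines, and H3.1 and H3t were the lines in which it was not. The difference was -0.88 (SE 0.20) with an adjusted p of 8.20e-04, which passed the p but not the size of 1.

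Col1a1 in growth was 1.95 FPKM in H3mm11, 2.05 in H3mm16, 2.98 in H3mm7, 4.44 in H3mm13, 4.61 in H3mm12, 5.10 in WT, 6.39 in H3t, 12.2 in H3.3, 70.4 in H3.2 and 104 in H3.1. The H3.1 and H3.2 lines stood far above the other 8. After differentiation it was 0.220 FPKM in H3mm11, 1.32 in H3mm16, 1.88 in H3mm13, 2.51 in H3.3, 3.25 in WT, 3.43 in H3mm7, 4.29 in H3mm12, 8.20 in H3t, 42.5 in H3.1 and 50.97 in H3.2. The order of the lines was thus much the same in both states at its ends, with H3.1 and H3.2 highest and H3mm16 and H3mm11 lowest. Differentiation itself gave a difference of -0.64 (SE 0.75, adjusted p = 0.485), with 8 of 10 lines lower. With the line as a replicate block, which removes the spread between lines, the same difference had an adjusted p of 0.0128.

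Within a library FPKM is per length, so chains can be set side by side. Col1a2 exceeded Col1a1 in all 20 libraries. The ratio of Col1a2 to Col1a1 was lowest in H3.1 in growth (2.40) and in H3.2 after differentiation (2.41), and highest in H3mm11 in both states (106 and 291). Its median was 49.02 in growth and 31.7 after differentiation. The coding sequence of Col1a1 has 62.9% GC and that of Col1a2 59.5%. The 1017 genes with at least 60.4% coding GC had a median log2(FPKM + 1) that varied between libraries from 3.35 (H3t) to 3.85 (H3mm7) in growth, while the median of all genes varied from 3.77 to 3.86. In H3.1 and H3.2 in growth the GC-rich median was 3.73 and 3.53, and its part in the spread of Col1a1 was not tested.

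Type III collagen is made of 3 chains of Col3a1 and accompanies type I in soft tissue. Col3a1 had the highest mean of all collagen genes (223 FPKM). In growth its values were 132 FPKM in H3t, 144 in H3mm13, 146 in H3.2, 149 in H3mm11, 149.9 in H3mm16, 175 in H3.1, 180.4 in H3.3, 196 in H3mm12, 212 in H3mm7 and 214 in WT. After differentiation they were 91.9 FPKM in H3mm7, 116 in H3.3, 118 in H3mm11, 223 in H3mm12, 288 in H3.2, 302 in H3mm16, 324 in H3mm13, 332 in WT, 437 in H3t and 527 in H3.1. A span of 1.63-fold in growth thus became one of 5.74-fold, with 7 lines higher and H3.3, H3mm7 and H3mm11 lower. Over the 10 lines the difference was 0.51 (SE 0.27, adjusted p = 0.109). The ratio of Col3a1 to Col1a2 was below 1 in 10 of 10 growth libraries (0.561 to 0.873) and above 1 in 9 of 10 differentiated libraries, with 0.876 in H3mm7 and up to 3.15 in H3mm13.

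The promoters of Col1a2 and Col3a1 are shown because these were the highest collagen genes, Col1a2 in growth and Col3a1 after differentiation. Both are the RefSeq sequence from 250 bases before to 50 bases after the start, and each was found once in mm9, at chr6:4455368-4455667 (+ strand) for Col1a2 and at chr1:45368133-45368432 (+ strand) for Col3a1. In GENCODE M1 the Col1a2 gene begins at 4454814, before its window, and the Col3a1 gene at 45368383, inside its window. Promoter entries matched 35 of the 44 genes and 13 of the 16 tested. Capitals mark matches to 3 motifs, each searched on both strands. They are the CCAAT box, the GC box, which reads GGGCGG, and the TATA motif in its form TATAAA, and no match overlaps another.
Col1a2: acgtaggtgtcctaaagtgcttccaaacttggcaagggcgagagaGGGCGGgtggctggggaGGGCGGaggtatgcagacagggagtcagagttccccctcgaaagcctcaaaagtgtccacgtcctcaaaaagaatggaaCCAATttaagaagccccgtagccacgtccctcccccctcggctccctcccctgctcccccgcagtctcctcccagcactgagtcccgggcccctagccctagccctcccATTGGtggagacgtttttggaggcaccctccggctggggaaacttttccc
Col3a1: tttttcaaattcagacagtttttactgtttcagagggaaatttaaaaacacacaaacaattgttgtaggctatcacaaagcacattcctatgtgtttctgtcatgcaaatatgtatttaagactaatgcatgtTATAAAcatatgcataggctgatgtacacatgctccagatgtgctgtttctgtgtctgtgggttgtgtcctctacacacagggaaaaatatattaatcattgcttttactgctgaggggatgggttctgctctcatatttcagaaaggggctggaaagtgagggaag
The Col1a2 window has 61% GC and holds CCAAT once on each strand and GGGCGG at 2 places, and the Col3a1 window has 37.7% GC and holds TATAAA once. Of 32851 RefSeq mouse promoters of the same length, 37.4% hold CCAAT, 35.7% GGGCGG and 13.6% TATAAA. A match describes the letters of the window only.

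Type V collagen, made of Col5a1, Col5a2 and Col5a3 chains, is built into type I fibrils and limits their width. Col5a1 differed little between the states. Its growth values were 45.8 FPKM in H3.2, 46.1 in H3t, 46.7 in H3mm12, 48.6 in H3mm13, 49.6 in H3mm16, 54.5 in H3mm11, 58.8 in WT, 73.5 in H3.1, 82.6 in H3mm7 and 87.6 in H3.3. After differentiation they were 33.8 FPKM in H3mm11, 41.2 in H3mm12, 41.5 in H3.2, 44.1 in H3t, 45.03 in H3mm7, 47.4 in H3mm13, 52.4 in H3.3, 53.0 in H3mm16, 72.2 in WT and 83.2 in H3.1. The states overlapped almost wholly (difference -0.21, SE 0.16, 95% interval -0.54 to 0.12, adjusted p = 0.269).

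Col5a2 lay above Col5a1 in every library. In growth it was 88.0 FPKM in WT, 106 in H3.2, 106 in H3mm13, 113 in H3mm12, 124 in H3mm16, 132 in H3mm7, 138 in H3.3, 153 in H3mm11, 176 in H3t and 202 in H3.1. Differentiated Col5a2 was 58.0 FPKM in H3.2, 58.3 in H3mm12, 58.9 in H3mm13, 62.3 in H3mm11, 73.6 in H3mm16, 74.0 in H3.3, 77.9 in WT, 112 in H3mm7, 119 in H3t and 155 in H3.1. All 10 lines were lower after differentiation, with H3.1 and H3t among the highest lines in both states (difference -0.69, SE 0.19, adjusted p = 0.00312). The ratio of Col5a2 to Col5a1 went from 1.50 to 3.81 in growth and from 1.08 to 2.71 after differentiation, lowest in WT and highest in H3t in both. Col5a3 had a growth median of 7.84 FPKM (6.33 in H3mm12 to 21.9 in H3mm7) and a differentiated median of 13.02 FPKM (3.64 in H3mm11 to 45.8 in H3.1). Its lines moved both ways, from 0.287 of the growth value in H3mm11 to 5.61-fold of it in H3.1, and the difference was 0.46 (SE 0.32, adjusted p = 0.223).

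Type IV collagen of most basement membranes joins α1 chains from Col4a1 and α2 chains from Col4a2. In mm9 (GENCODE M1) these genes lie head to head on chromosome 8, Col4a1 at 11198423 to 11312826 on the - strand and Col4a2 at 11312805 to 11449287 on the + strand, so their ends overlap by a few bases. The starts of the RefSeq promoters are 21 bases apart, and the windows share 78 bases, chr8:11312777-11312854. Both windows are shown because the genes share this start region and were both lower after differentiation in 10 of 10 lines. The capitals mark the shared bases, which run in opposite directions. The window of Col4a1 is chr8:11312777-11313076 (- strand) and that of Col4a2 is chr8:11312555-11312854 (+ strand).
Col4a1: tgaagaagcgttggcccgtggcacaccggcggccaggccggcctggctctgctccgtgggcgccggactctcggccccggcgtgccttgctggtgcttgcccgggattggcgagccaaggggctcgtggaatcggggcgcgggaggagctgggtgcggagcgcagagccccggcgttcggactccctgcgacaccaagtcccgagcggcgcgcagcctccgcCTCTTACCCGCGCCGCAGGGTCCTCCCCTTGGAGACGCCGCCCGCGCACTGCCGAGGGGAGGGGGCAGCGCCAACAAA
Col4a2: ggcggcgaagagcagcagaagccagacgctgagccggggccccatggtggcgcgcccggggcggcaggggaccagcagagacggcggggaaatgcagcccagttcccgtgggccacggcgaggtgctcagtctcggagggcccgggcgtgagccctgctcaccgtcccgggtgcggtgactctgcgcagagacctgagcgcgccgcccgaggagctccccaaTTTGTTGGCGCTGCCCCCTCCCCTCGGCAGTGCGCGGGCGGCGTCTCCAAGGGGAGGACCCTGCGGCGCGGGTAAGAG
The windows have 74.0% and 73.7% GC, and neither holds TATAAA.

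Col4a1 in growth was 77.2 FPKM in WT, 112 in H3.2, 123 in H3mm13, 128 in H3t, 143 in H3mm12, 162 in H3mm11, 163 in H3mm16, 172 in H3.1, 178 in H3.3 and 184 in H3mm7. Differentiated Col4a1 was 39.6 FPKM in WT, 54.1 in H3mm11, 55.2 in H3.2, 57.1 in H3.3, 62.6 in H3mm7, 82.8 in H3mm12, 92.6 in H3mm13, 93.2 in H3t, 107 in H3mm16 and 139.8 in H3.1. It was lower in 10 of 10 lines, to between 0.320 (H3.3) and 0.813 (H3.1) of the growth value, and WT was lowest in both states. The difference was -0.92 (SE 0.20, adjusted p = 5.09e-04).

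Col4a2 in growth was 64.1 FPKM in WT, 72.2 in H3.2, 72.7 in H3t, 81.6 in H3mm13, 85.2 in H3mm12, 94.4 in H3mm11, 102 in H3mm16, 116 in H3.1, 118 in H3.3 and 124 in H3mm7. After differentiation it was 33.2 FPKM in H3.2, 36.2 in WT, 44.8 in H3mm7, 46.3 in H3mm11, 51.6 in H3.3, 52.4 in H3mm12, 58.5 in H3t, 76.1 in H3mm13, 81.7 in H3mm16 and 106 in H3.1. All 10 lines were again lower, and H3.3, H3mm7 and H3.1 were the highest growth lines of both chains (difference -0.71, SE 0.19, adjusted p = 0.00252). The ratio of Col4a1 to Col4a2 stayed between 1.204 and 1.76 in growth and between 1.10 and 1.66 after differentiation, the narrowest range of the chain pairs examined.

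Col4a5, an X-linked chain that partners α3, α4 or α6 chains in other basement membranes, went the other way. It had a growth median of 2.57 FPKM (0.775 in WT to 6.09 in H3.3) and a differentiated median of 5.86 FPKM (1.32 in WT to 8.78 in H3mm16). It was higher in 9 of 10 lines, H3mm7 being the exception, with a difference of 0.83 (SE 0.26, adjusted p = 0.00982). Its partner chains Col4a3, Col4a4 and Col4a6 stayed near 0 in both states.

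Type VI collagen is assembled from 1 chain each of Col6a1, Col6a2 and Col6a3. The chains moved in opposite directions: Col6a3 fell with differentiation in every line, and Col6a1 rose in every line but H3mm7. Col6a3 in growth was 40.6 FPKM in WT, 43.8 in H3mm12, 50.1 in H3mm13, 52.1 in H3mm16, 62.5 in H3mm11, 62.7 in H3t, 67.2 in H3.2, 72.4 in H3mm7, 78.8 in H3.3 and 82.1 in H3.1. After differentiation it was 4.29 FPKM in H3mm11, 5.38 in H3.3, 7.51 in H3mm7, 8.75 in H3.2, 9.98 in WT, 10.98 in H3mm12, 12.3 in H3mm16, 15.6 in H3mm13, 21.9 in H3t and 31.7 in H3.1. The highest differentiated value lay below the lowest growth value, and lines kept between 0.0683 (H3.3) and 0.387 (H3.1) of the growth level. The difference was -2.34 (SE 0.26, 95% interval -2.88 to -1.80, adjusted p = 1.11e-07).

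Col6a1 in growth was 0.390 FPKM in H3.2, 0.695 in H3.1, 0.997 in H3t, 1.33 in H3mm12, 2.49 in H3mm11, 2.97 in H3mm16, 3.78 in H3mm13, 4.16 in WT, 7.06 in H3.3 and 43.0 in H3mm7. After differentiation it was 1.84 FPKM in H3.2, 3.50 in H3.1, 4.78 in H3mm11, 8.06 in H3mm12, 11.2 in H3.3, 17.98 in H3t, 19.3 in WT, 24.1 in H3mm7, 34.7 in H3mm13 and 44.2 in H3mm16. It was higher after differentiation in 9 of 10 lines, up to 18.04-fold in H3t, and lower in H3mm7. The difference was 1.65 (SE 0.58, 95% interval 0.45 to 2.86, adjusted p = 0.0189). This call was lost without the H3mm16 line (adjusted p = 0.0522) and without the H3t line (adjusted p = 0.0527).

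Col6a2 lay below Col6a1 in every library. Its growth median was 0.768 FPKM (0.0399 in H3.1 to 27.0 in H3mm7) and its differentiated median 4.52 FPKM (0.268 in H3.1 to 17.5 in H3mm7). It was higher in 9 of 10 lines, with a difference of 0.99 (SE 0.58, adjusted p = 0.152). With the line as a replicate block the adjusted p was 0.00630. Col6a1 and Col6a2 are neighbours on chromosome 10, on the - strand, at 76171537 to 76188913 and 76058507 to 76086375 of mm9, whereas Col6a3 is on chromosome 1.

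In growth Col6a3 exceeded Col6a1 in 10 of 10 libraries, by 1.68-fold in H3mm7 to 172-fold in H3.2. After differentiation it exceeded Col6a1 in 4 of 10, with ratios between 0.278 (H3mm16) and 9.08 (H3.1). Col6a1 exceeded Col6a2 in all 20 libraries, between 1.59-fold and 17.4-fold in growth and between 1.38-fold and 13.1-fold after differentiation, least in H3mm7 and most in H3.1 in both states. The coding GC is 57.9% for Col6a1, 59.7% for Col6a2 and 55.2% for Col6a3. H3mm7 and H3.3, the highest growth lines for Col6a1 and Col6a2, also had the highest medians of GC-rich genes in growth (3.85 and 3.796), and the part of this in their levels was not tested.

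**Figure D4:**
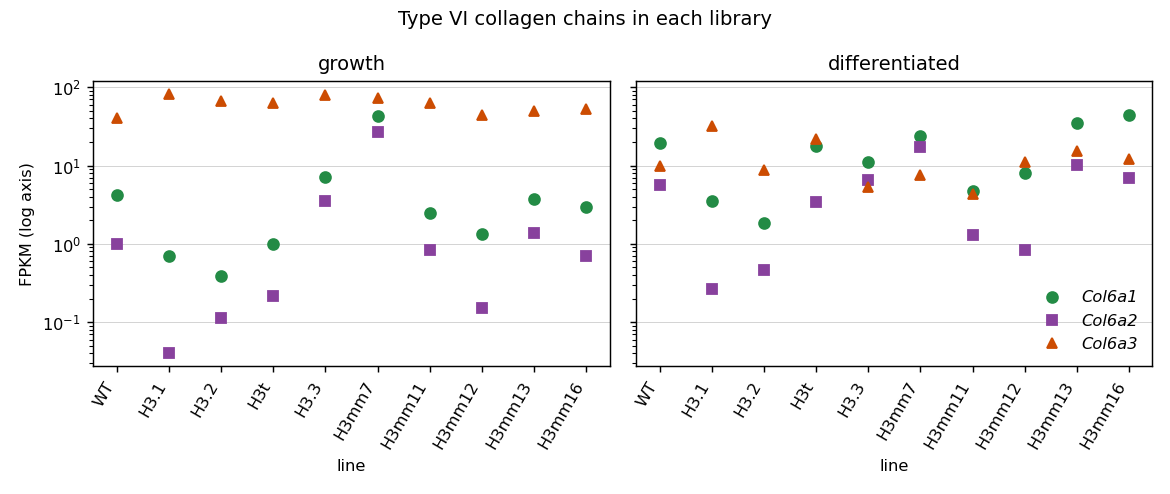
FPKM on a log axis of the 3 expressed type VI chains in each line, growth at the left and differentiated at the right. Each marker is 1 library. Col6a3 lies above Col6a1 and Col6a2 in every growth library, and drops to or below Col6a1 in 6 of 10 differentiated libraries, while H3mm7 holds the highest growth values of Col6a1 (43.0) and Col6a2 (27.0).

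Col8a1 encodes a short-chain collagen that forms networks below endothelium and in the cornea. Its growth values were 12.03 FPKM in H3mm7, 12.4 in H3mm12, 14.0 in H3mm11, 14.4 in H3mm13, 15.3 in H3mm16, 15.52 in H3.2, 16.1 in H3.3, 16.8 in WT, 18.1 in H3t and 22.2 in H3.1. After differentiation they were 0.531 FPKM in H3mm11, 0.747 in H3mm7, 1.07 in H3.3, 1.90 in H3.2, 2.16 in H3mm13, 2.55 in H3mm16, 2.57 in H3mm12, 4.35 in WT, 4.90 in H3t and 15.8 in H3.1. All 10 lines were lower, with H3.1 as the line that overlapped the growth range (difference -2.20, SE 0.31, 95% interval -2.84 to -1.56, adjusted p = 2.94e-06). A range of 1.85-fold between lines in growth became one of 29.8-fold after differentiation. Its partner gene Col8a2 stayed at or under 0.133 FPKM.

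The FACIT genes Col12a1 and Col16a1 attach to collagen fibrils and microfibrils. Col12a1 had a growth median of 22.2 FPKM (11.6 in H3.2 to 38.7 in H3mm7) and a differentiated median of 20.5 FPKM (6.11 in H3.2 to 106 in H3.1). Its lines moved in opposite directions, from 0.193 of the growth value in H3mm7 to 4.95-fold of it in H3.1, and the difference over lines was 0.14 (SE 0.40, adjusted p = 0.791). Col16a1 had medians of 4.57 FPKM in growth (2.48 to 9.64) and 2.62 FPKM after differentiation (1.02 to 10.1), with a difference of -0.55 (SE 0.26, adjusted p = 0.0686, and 0.0250 with the line as a replicate block).

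Col18a1 is a basement membrane collagen with sugar chains, whose end fragment is endostatin. It is given in full because its pattern over lines stood out when the values were seen. In growth it was 4.24 FPKM in H3.1, 4.46 in H3.2, 7.40 in WT, 8.45 in H3mm12, 8.90 in H3t, 14.2 in H3mm13, 14.3 in H3mm11, 14.3 in H3mm16, 16.7 in H3mm7 and 20.3 in H3.3. After differentiation it was 1.31 FPKM in H3.2, 2.49 in H3mm12, 4.73 in H3.1, 5.91 in WT, 6.73 in H3mm16, 6.74 in H3t, 7.15 in H3mm13, 26.6 in H3mm11, 32.9 in H3mm7 and 34.7 in H3.3. H3.3, H3mm7 and H3mm11 were the highest lines after differentiation, with a wide gap to the other 7, whereas the same lines were the lowest for Col3a1 and Col8a1. As these lines were set apart on these libraries, this is a description without a test. Over the 10 lines, differentiation gave a difference of -0.25 (SE 0.45, adjusted p = 0.653).

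**Figure D5:**
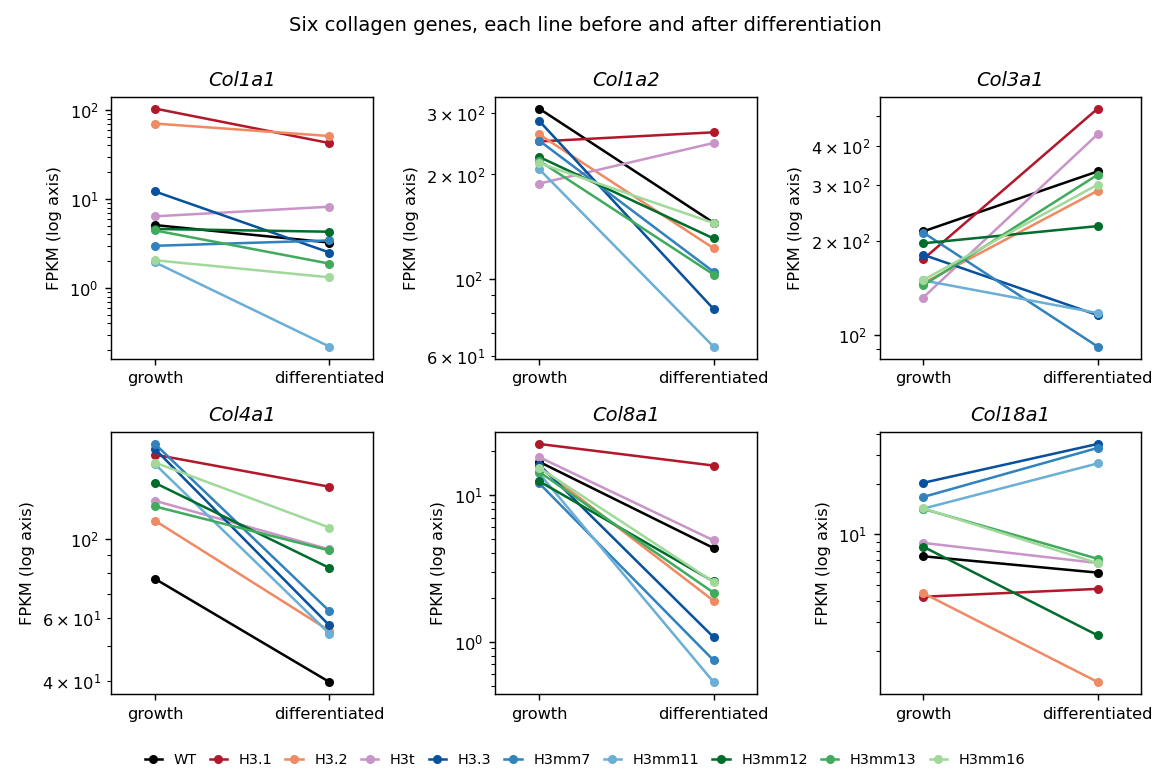
FPKM on log axes of 6 collagen genes in growth and after differentiation, with the 2 libraries of each line joined. Col4a1 and Col8a1 are lower after differentiation in all 10 lines, Col1a1 keeps H3.1 and H3.2 highest in both states, and Col3a1 and Col18a1 separate H3.3, H3mm7 and H3mm11 from the other lines after differentiation, in opposite directions.

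The 6 H3.3-type and 3 H3.1/H3.2-type lines were compared in each state, with WT left out. After differentiation, 1 of 16 collagen genes was called (Col1a1), where 0.749% of all genes were called in either direction, and 8 of 16 had an unadjusted p under 0.05, as had 20.1% of all genes. By adjusted p alone 2 were found (Col1a1 and Col1a2), where 2.46% of all genes were. Col1a1 had a median of 2.19 FPKM in the H3.3-type lines (0.220 to 4.29) and 42.5 FPKM in the H3.1/H3.2-type lines (8.20 to 50.97). The difference between the types was -3.22 (SE 0.73, 95% interval -4.75 to -1.68, adjusted p = 0.0317), and H3t lay nearer to H3mm12 than to H3.1 or H3.2. The call was lost when any of H3.1, H3.2, H3.3, H3mm11, H3mm13 or H3mm16 was left out, with adjusted p from 0.0543 to 0.122, while the difference ran from -4.01 to -2.76 over all lines left out in turn. WT, with 3.25 FPKM, lay inside the range of the H3.3-type lines. The GC-rich median after differentiation was 3.82 in H3.1, 3.56 in H3.2 and 3.34 in H3t, against 3.52 to 3.75 in the H3.3-type lines, and its part was not tested.

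Col1a2 after differentiation had a median of 104 FPKM in the H3.3-type lines (64.0 to 145) and 246 FPKM in the H3.1/H3.2-type lines (123 to 264), with overlapping ranges (difference -0.97, SE 0.25, adjusted p = 0.0493). It no longer passed when any of H3.1, H3.3, H3mm7, H3mm11, H3mm13, H3mm16 or H3t was left out (adjusted p from 0.0566 to 0.216), with a pseudocount of 0.01 FPKM (0.0510), with a minimum mean of 5 FPKM (0.0503) or without the filter (0.104). Col8a1 and Col3a1 came next without passing the adjusted p. Col8a1 had medians of 1.62 and 4.90 FPKM (difference -1.42, SE 0.38, adjusted p = 0.0559), and Col3a1 of 170.1 and 437 FPKM (difference -1.22, SE 0.34, adjusted p = 0.0625). For both genes the lowest lines were H3.3, H3mm7 and H3mm11, which the study set apart on these libraries. H3mm13 and H3mm16, also of the H3.3-type, lay above H3.2 for both genes. Without the H3.2 line, Col1a2, Col3a1, Col5a3, Col6a3 and Col8a1 were called lower in the H3.3-type lines, where 1.72% of all genes were called lower, and Col1a1 was not called.

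In growth no collagen gene was called between the types by limma, where 0.21% of all genes were called, and 3 of 16 had an unadjusted p under 0.05, as had 9.39% of all genes. Col1a1 had medians of 3.71 FPKM in the H3.3-type lines (1.95 to 12.2) and 70.4 FPKM in the H3.1/H3.2-type lines (6.39 to 104). The ranges overlapped because H3t lay below H3.3 (difference -2.95, SE 0.73, adjusted p = 0.141). Without H3t Col1a1 was called (difference -4.13, adjusted p = 0.00595). Col6a1 had medians of 3.37 FPKM (1.33 to 43.0) and 0.695 FPKM (0.390 to 0.997), and the difference was 1.88 (SE 0.81, adjusted p = 0.462). Col4a5 had medians of 3.05 and 1.74 FPKM (difference 0.76, SE 0.28, adjusted p = 0.360).

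Whether the change with differentiation differed between the types was tested as an interaction. No collagen gene was called by limma, where 0% of all genes were called, and 3 of 16 had an unadjusted p under 0.05, as had 9.15% of all genes. They were Col5a3 (interaction -1.79, SE 0.59, adjusted p = 0.439), Col3a1 (-1.40, SE 0.48, adjusted p = 0.441) and Col1a2 (-0.99, SE 0.35, adjusted p = 0.456). A negative interaction means a lower change in the H3.3-type lines. None was called with the line as a replicate block either, with 5 of 16 at an unadjusted p under 0.05, against 16.2% of all genes.

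Collagen chains need many partners before they become fibres, and lists of these were read in the same comparison of the states. The table holds 43 partner genes, of which 34 were tested, and 6 were called higher and 6 lower after differentiation, where 8.87% of all genes were called higher and 8.41% lower. Of 5 cross-linking enzymes 3 were called lower, and of 5 receptors and uptake genes tested 3 were called higher. Among the latter, Itga10 reached the filter only through its differentiated values. These counts are few, and no list was tested against the others or against all genes.

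Lysyl oxidases cross-link collagen outside the cell. Loxl4 had medians of 8.90 FPKM in growth and 2.51 FPKM after differentiation (difference -1.17, SE 0.26, adjusted p = 5.12e-04). Loxl2 (-1.16, adjusted p = 0.00212) and Loxl3 (-1.04, adjusted p = 2.57e-04) fell by a like amount. Lox, the most abundant with a growth median of 175 FPKM and a differentiated median of 103 FPKM, fell by 0.98 on the log2 scale, just under the limit of 1 (adjusted p = 0.00283). Loxl1 had a difference of 0.28 (adjusted p = 0.340).

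Of 5 propeptide cleavage genes tested, 2 were called higher and 1 lower. Pcolce2, which aids removal of the C-terminal propeptide, was lower in 10 of 10 lines, with medians of 62.8 FPKM in growth and 8.06 FPKM after differentiation (difference -2.80, SE 0.17, adjusted p = 1.06e-11). Adamts2 and Adamts14, which remove the N-terminal propeptide, were higher in 10 of 10 lines, Adamts2 from a median of 1.43 to 6.98 FPKM (difference 1.67, adjusted p = 0.00136) and Adamts14 from 1.96 to 8.63 FPKM (difference 1.51, adjusted p = 4.00e-05). Pcolce, the related enhancer, was the only partner gene called between the H3 types, where 0.749% of all genes were called after differentiation. It was lower in H3.3-type lines after differentiation (difference -1.34, SE 0.31, adjusted p = 0.0354). Its differentiated values ran from 61.3 FPKM in H3mm11 to 467.5 FPKM in H3.1. Pcolce2 (-0.83, limma, adjusted p = 0.0283) and Loxl3 (-0.92, adjusted p = 0.0292) passed the adjusted p in this contrast but not the size of 1. Partner genes were not examined with lines left out.

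Of 19 chaperones and modifying enzymes tested, 1 was called higher and 2 lower. Serpinh1, the collagen chaperone Hsp47, was high in both states, with medians of 436 FPKM in growth and 463 FPKM after differentiation (difference 0.19, SE 0.17, adjusted p = 0.366). Fkbp10, a prolyl isomerase of the endoplasmic reticulum, fell from a median of 82.7 to 40.4 FPKM, lower in 10 of 10 lines (difference -1.04, SE 0.18, adjusted p = 3.08e-05). P4ha3, a catalytic subunit of prolyl 4-hydroxylase, fell from 4.43 to 1.89 FPKM (difference -1.04, adjusted p = 0.00382). Tmem38b, an ion channel of the endoplasmic reticulum, rose from 6.63 to 48.4 FPKM in 10 of 10 lines (difference 2.69, SE 0.27, adjusted p = 2.57e-08).

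Among receptors and uptake genes, Itga10, the α10 subunit of a collagen-binding integrin, rose from a median of 0.190 to 1.79 FPKM (difference 1.32, adjusted p = 1.05e-06). It stayed at or under 0.301 FPKM in growth, so it reached the filter only through its differentiated values. Mrc2, an endocytic collagen receptor, rose from 4.12 to 14.2 FPKM (difference 1.17, adjusted p = 7.84e-04), and Ddr2, a tyrosine kinase that binds fibrillar collagen, from 19.6 to 43.1 FPKM (difference 1.04, adjusted p = 8.59e-06). Ddr2 and Itga10 were higher in 10 of 10 lines and Mrc2 in 8. Itgb1, the shared β subunit of the collagen-binding integrins, had a difference of 0.16 (adjusted p = 0.532).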

How the data were processed

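mRNA-Seq was made from 10 C2C12 lines in growth and after differentiation (20 libraries). The authors mapped reads to mm9 with TopHat 2.0.8 and deposited FPKM values from cuffdiff of Cufflinks 2.0.1, as the submitters' processing notes and the methods name them. The methods do not say how the WT reads were mapped, and the strand setting is not given in the sources used here. FPKM is scaled to library size and transcript length and carries no counts, so depth and counting error are unknown. 3′-seq tables of histone genes and ChIP-seq data were not used here.

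Genes with a mean of at least 1 FPKM (10954 of 22489) were tested with limma 3.58.1 (trend and robust settings, R 4.3.3) on log2(FPKM + 1), after a test on simulated data. The states were compared over 10 and 10 libraries. The 6 lines with an H3.3-type transgene were set against the 3 with an H3.1/H3.2-type transgene in each state, as contrasts of 1 fit. This fit held 18 libraries of both states with 1 shared estimate of the spread, and WT was left out. In it the libraries of a line entered as independent. The difference of the contrasts was tested as an interaction. Among these contrasts, the line as a replicate block was fitted for the interaction only. Each line gave 1 library per state, so p-values without the block measure the spread between lines. Libraries are paired by line, and p-values with the block measure how the change within a line varied over the lines. Deviations from the state means correlated within a line with r from 0.27 (H3mm7) to 0.88 (WT) across genes, and 10 of 10 lines matched themselves best. For collagen genes, values with the line as a replicate block are given where they change what passes. Partner genes were read without the block only.

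The collagen genes, classes, partner lists and markers were chosen with earlier results of these data known. Named by rule were every collagen gene, line values of the 6 highest and the called collagen genes, the called genes or the 3 smallest p between types, and up to 3 called partner genes of a list in each direction. Col3a1, Col8a1, Pcolce2 and Loxl3 between types, Col18a1, Lox, Loxl1, Serpinh1, Pcolce, Itgb1 and the line values of Col1a1 were added after their values were seen. Gene positions are from GENCODE M1 on mm9, and RefSeq promoter windows were located by exact match in mm9. Coding GC was available for 10168 of 10954 genes (92.8%). Alternatives covered the pseudocount (0.1 and 0.01), the filter, scaling, the block, WT, the limma settings and leaving out each line. Python 3.11.15, numpy 2.4.6, pandas 2.3.3 and matplotlib 3.10.9 were used.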

Additional observations from a re-analysis of the deposited data

Results flagged for a closer look

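Dixon's test for a value far from the others was applied to log2(FPKM + 1) of each of the 16 tested collagen genes over the 10 libraries of a state, 32 groups in all, of which chance flags about 1 in 20. It marked 3 values. Col4a5 after differentiation was 1.32 FPKM in WT, below the next line at 3.86 FPKM. Col6a1 in growth was 43.0 FPKM in H3mm7, above the next line at 7.06 FPKM, and Col6a2 in growth was 27.0 FPKM in H3mm7, above the next line at 3.54 FPKM. Without H3mm7 the difference of Col6a2 between the states was 1.16 (limma, adjusted p = 0.0246) and it was called higher, where with all lines it was 0.99 (adjusted p = 0.152). H3mm7 was also the only line in which Col6a2 fell. Leaving it out therefore had to raise the difference, and that call is no separate support for a rise.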

How the results depend on the processing

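With 20 alternatives, the number of collagen genes called higher after differentiation (1) became 2 with a pseudocount of 0.1 FPKM or 0.01 FPKM (Col4a5 then passing the size of 1), 2 by adjusted p alone, and 0 to 2 when a line was left out (0 without H3mm16 or H3t, 2 without H3mm7). The number called lower (2) became 6 by adjusted p alone and 3 without H3t, where Col1a2 (-1.02, adjusted p = 1.82e-04) also passed. Over all genes, calls between the states went from 972 higher and 921 lower to 1197 and 1106 with a pseudocount of 0.1 FPKM. They were 952 and 897 without H3mm16, 962 and 926 without H3t, and 1020 and 952 without H3mm7. For the collagen genes, the line as a replicate block changed no other call than those given in the report. The called genes stayed 1 higher and 2 lower. Also, 11 passed the adjusted p when the WT libraries were left out of that fit, an alternative chosen after seeing the data. In it 7856 of all 10954 genes had an unadjusted limma p under 0.05, as had 12 of the 16 collagen genes. Between the H3 types after differentiation, the number called (1) became 0 without a filter on low values, 2 with upper-quartile scaling, 3 with quantile normalization, 2 by adjusted p alone and 0 to 5 when a line was left out (0 without H3.1, H3.3, H3mm11, H3mm13 or H3mm16, 2 without H3mm7, 4 without H3mm12 and 5 without H3.2). Calls over all genes moved as well, from 24 higher and 58 lower to 23 and 77 with upper-quartile scaling and 33 and 62 with quantile normalization. They were 107 and 188 without H3.2, 68 and 97 without H3mm12, and 1 and 2 without H3.1. In growth the number of collagen genes called was 0 to 1, with 1 without H3t, where 3 of all genes were called higher and 4 lower. The cause was not tested. Values between the states, or between the types after differentiation, that changed sign did so when a line was left out, and none of them was called. Between the types after differentiation these were Col4a1 (-0.63 to 0.037), Col4a2 (-0.45 to 0.37), Col4a5 (-0.081 to 0.35), Col5a1 (-0.42 to 0.069) and Col12a1 (-1.47 to 0.49), and between the states Col12a1 (-0.0995 to 0.40). Between the types in growth, Col1a2 ran from -0.13 to 0.10 when a line was left out, and it was not called. The interaction stayed at 0 called in every setting. Depth is unknown, so it was not possible to say which low values are limited by it.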
